A study of Rattus norvegicus with 3 samples.

Results

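Immediate early genes of neuronal activity were examined on both sides of the rat cerebellar cortex after a stroke in the right forebrain hemisphere, and in a control group. The group held 10 genes, Fos, Fosb, Junb, Egr1, Egr2, Npas4, Nr4a1, Arc, Ier2 and Dusp1, out of 38973 genes on the arrays. They were taken by name, through the RefSeq symbol matched by the accession of each probe, and were read by 12 probes on 32 spots of each array. Of the 10 genes, 7 were well above background on each of the 3 arrays with every probe, as were 22085 of the 38973 genes, and these are called measured here.

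Cerebellar cortex was taken from male Wistar rats, 9 weeks old, 2 days after surgery. In the MCAO group, the right middle cerebral artery had been occluded for a limited time with a filament, and only rats within a set range of neurological deficit had been kept. The left cortex of these rats made up the contralateral group and the right cortex the ipsilateral group. In the control group, the right carotid artery had been exposed without being opened, and the left cortex was taken. Tissue of 4 rats was pooled for each group and measured on 1 array, and both sides of the MCAO group came from the same rats. Without replicate arrays no test could be made, and every difference given is a difference between pools of tissue. The ratios of both sides to the control group share the control array.

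Immediate early genes are transcribed within minutes of a stimulus, from factors already present in the cell. In neurons the stimulus is calcium entry and synaptic input, which act through cAMP response element (CRE) binding protein and through serum response factor at CArG boxes. Their RNAs are short-lived, so a level reflects recent input as well as handling around death. In crossed cerebellar diaschisis, the cerebellar hemisphere opposite a forebrain lesion is assumed to lose excitatory input from the cortex by way of the pons. The study did not show such a loss, and it measured blood flow in other rats than those of the arrays. Immediate early genes are widely used as a readout of neuronal activity. In glia and vessels the same genes respond to growth factors and stress. The samples were bulk tissue, so fewer cells of a type and less RNA per cell cannot be told apart.

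The regulatory sequence in front of the genes was read from the RefSeq promoter table of the GRCr8 assembly, over the 250 bases upstream of the start that the table gives. The table matched 8 of the 10 genes, and Fos and Arc were not matched. The core of the CRE, TGACG, was searched on both strands and occurred in 6 of the 8, Dusp1, Egr1, Egr2, Ier2, Junb and Nr4a1, and in 18.2% of all 33469 promoters of this length. The whole CRE, TGACGTCA, which holds the core on both strands, occurred in Dusp1 and Ier2 and in 1.59% of all promoters. A CArG box occurred in Egr1 and Egr2 and in 1.5% of all promoters. The GC box GGGCGG occurred in 3 of the 8 genes, Dusp1, Egr2 and Nr4a1, and in 30.5% of all promoters. The EGR motif GCGNGGGCG occurred in Nr4a1 alone among the 8 and in 4.29% of all promoters, and the AP-1 motif TGANTCA in none of the 8 and in 6.34% of all. A match describes letters only, and no motif was compared with ratios across genes.
Stretches of 3 genes are printed, 5′ to 3′ and ending at the base before the start, because Nr4a1 carried 4 cores, was read from 10 spots and had a contralateral ratio below -1, and because Dusp1 and Ier2 carried the whole CRE. Capitals mark the core or the whole CRE. The Nr4a1 stretch lies at chr7:134259888-134260137 on the plus strand, Dusp1 at chr10:17184603-17184852 on the plus strand and Ier2 at chr19:40399123-40399372 on the plus strand.
Nr4a1: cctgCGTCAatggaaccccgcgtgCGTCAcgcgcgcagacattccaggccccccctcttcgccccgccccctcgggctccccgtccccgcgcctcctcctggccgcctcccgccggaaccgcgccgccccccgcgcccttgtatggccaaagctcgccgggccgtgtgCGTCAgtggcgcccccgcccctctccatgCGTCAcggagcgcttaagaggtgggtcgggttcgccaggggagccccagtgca
Dusp1: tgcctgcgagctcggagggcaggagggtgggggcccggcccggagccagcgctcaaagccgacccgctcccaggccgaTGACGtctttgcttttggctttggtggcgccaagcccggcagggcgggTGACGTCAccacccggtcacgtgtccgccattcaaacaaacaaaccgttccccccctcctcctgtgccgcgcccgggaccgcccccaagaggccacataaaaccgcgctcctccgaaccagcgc
Ier2: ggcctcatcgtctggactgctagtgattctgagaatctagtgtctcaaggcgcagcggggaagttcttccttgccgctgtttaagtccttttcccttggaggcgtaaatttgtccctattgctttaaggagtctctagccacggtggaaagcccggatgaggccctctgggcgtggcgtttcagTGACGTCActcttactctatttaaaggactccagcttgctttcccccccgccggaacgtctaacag
The Nr4a1 start given in the table lies inside the annotated span of that gene, and whether longer transcripts cover the stretch as exon was not checked. In Nr4a1 the cores ended 242, 222, 78 and 49 bases before the start, and each stood within the letters TGCGTCA, a form searched after the sequence had been read. It occurred in 1.66% of all promoters, and Nr4a1 was the only one of the 33469 with 4 or more. In Dusp1 the whole CRE spanned bases 124 to 117 before the start and in Ier2 bases 66 to 59.

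Fos and Nr4a1 were lower on both sides of the MCAO group than in the control group. With the main scaling they were lowest on the contralateral side, and without scaling the sides were level. Egr1, Arc, Junb and Dusp1 were lower than in the control group by at most 1.20-fold on either side with the main scaling, while without scaling their ipsilateral log2 ratios lay between -0.79 for Arc and -0.60 for Junb. Fosb was lower on the contralateral side, where it was not well above background, and Npas4 was not well above background on any array. Signals are given after each array was shifted to a common 75th percentile, and a ratio is one of such signals on the log2 scale. Its error is the one that the scanner software gives for the spots, 0.20 even for bright probes, and covers neither rats nor hybridisations. A log2 ratio above 1 or below -1 is called past the threshold.

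**Figure D1:**
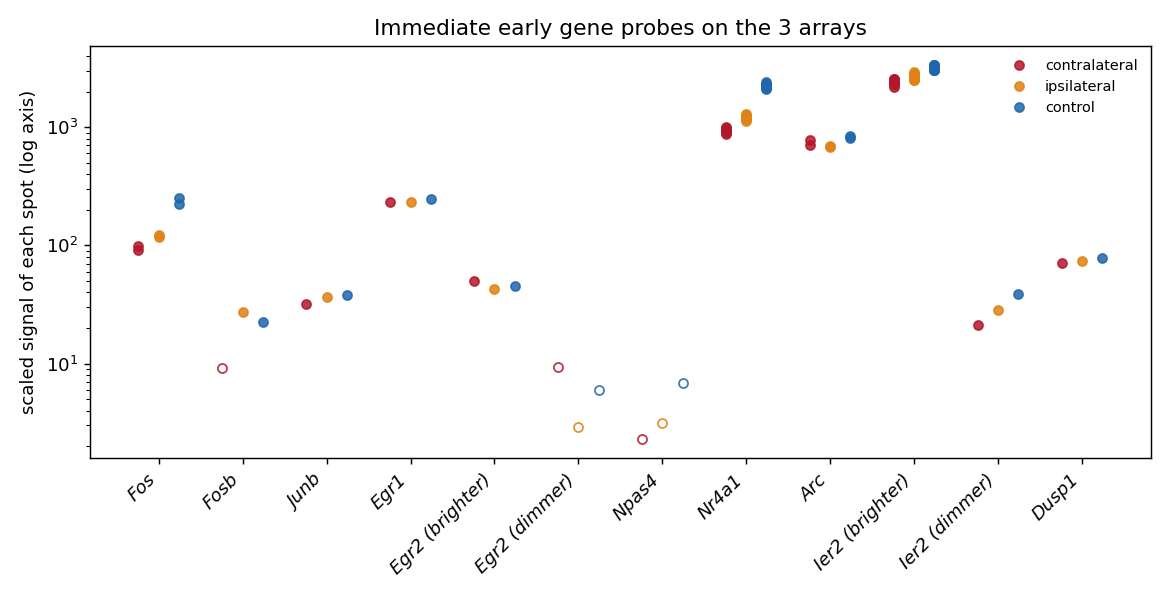
Scaled signal of each spot of the 12 probes on the contralateral, ipsilateral and control arrays, on a log axis. Open circles are probes not well above background on that array, and levels of different probes cannot be compared. The control spots of Fos and Nr4a1 lie above those of both other arrays.

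The AP-1 members encode Fos and Jun proteins, which pair to bind DNA. Fos, the founding gene of the family, had a scaled signal of 95.0 contralaterally, 119.9 ipsilaterally and 237 in the control group. Its 2 spots read 90.9 and 99.2 in the contralateral pool, 117 and 123 in the ipsilateral pool, and 223 and 252 in the control pool. After scaling, the spots of the 3 arrays did not overlap. Spots of 1 array are not replicates of a group. How many other probes separated in this way was not counted, here or for the genes below. Without scaling the contralateral to ipsilateral ratio was 0.05, beside a median of 0.37 over all measured genes. The separation of the sides thus rests on scaling the arrays to each other, and relative to that median Fos stood at -0.33. The log2 ratio to the control group was -1.32 contralaterally and -0.98 ipsilaterally, each with a scanner error of 0.21, or 2.50-fold and 1.98-fold lower. Of the 22085 measured genes, 76 or 0.344% had a contralateral ratio as low as that of Fos, and 184 or 0.833% an ipsilateral ratio as low. The contralateral value was -0.86 under normexp background correction with an offset of 50 and -0.99 with 50 added to the signal, an addition that is large beside a signal of 95.0.

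Fosb, whose long-lived splice product accumulates with repeated activity, was read from 1 spot. Its signal was 27.5 in the ipsilateral pool and 22.3 in the control pool, and 9.16 in the contralateral pool, where it was not well above background. With the main scaling, the contralateral signal was 2.44-fold below the control group and 3.01-fold below the ipsilateral side. The scanner errors of these log2 ratios were 0.39 and 0.40. The contralateral ratio to the control group was -0.24 under normexp and -0.29 with 50 added, and the contralateral to ipsilateral ratio was -1.21 without scaling, -1.16 after quantile normalization and -0.32 under normexp. Both folds use the contralateral signal itself, which lay just above 9.12, the lowest signal well above background on that array. Neither fold is a lower limit. The ipsilateral ratio to the control group was 0.30, with a scanner error of 0.28, and -0.23 without scaling of the arrays. Junb, a partner of Fos that opposes Jun at some promoters, read 31.7 contralaterally, 36.4 ipsilaterally and 38.0 in the control group. Its ratios to the control group were -0.26 and -0.06, with scanner errors of 0.23 and 0.24. The ipsilateral ratio of Junb was thus within its scanner error.

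The EGR genes encode zinc finger factors that bind GC-rich promoters. Egr1, the most widely used of them as a marker of activity, read 231 contralaterally, 233 ipsilaterally and 248 in the control group. The ratios to the control group were -0.10 and -0.09, within the scanner error of 0.20 and 0.21. Egr2, known also for its part in myelination of peripheral nerve, had 2 probes. The brighter read 50.1, 42.4 and 44.9 in the same order, with ratios of 0.16 and -0.08 within the scanner error. The dimmer probe was not well above background on any array and gives no fold, so no mean over both probes is given, though the counts and medians over all 10 members include it. Npas4, a factor that responds to calcium entry in neurons and to few other stimuli, read 2.28, 3.13 and 6.88, and no fold is given for it.

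Nr4a1, an orphan nuclear receptor also known as Nur77, was read from 10 spots. Its scaled signal was 937 contralaterally, 1208 ipsilaterally and 2250.2 in the control group. These spots spanned 879 to 1008 in the contralateral pool, 1129 to 1281 in the ipsilateral pool and 2113 to 2427 in the control pool. After scaling, no spot of an array fell in the range of another array. The spots of each array were close together, with a log2 standard deviation of 0.06, so small differences between arrays can separate them. Without scaling the contralateral to ipsilateral ratio was 0.02, and relative to the median of all measured genes it was -0.36. The log2 ratio to the control group was -1.26 contralaterally and -0.90 ipsilaterally, each with a scanner error of 0.20, or 2.40-fold and 1.86-fold lower. As low a ratio was found for 91 measured genes, or 0.412%, on the contralateral side and for 236, or 1.07%, on the ipsilateral side. The contralateral ratio was below -1 under each of the 7 alternatives of the processing that moved it, the ipsilateral one under 2 of these, and the other 4 alternatives left both unchanged. The stretch with 4 CRE cores printed above lies in front of the start given for this gene.

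**Figure D2:**
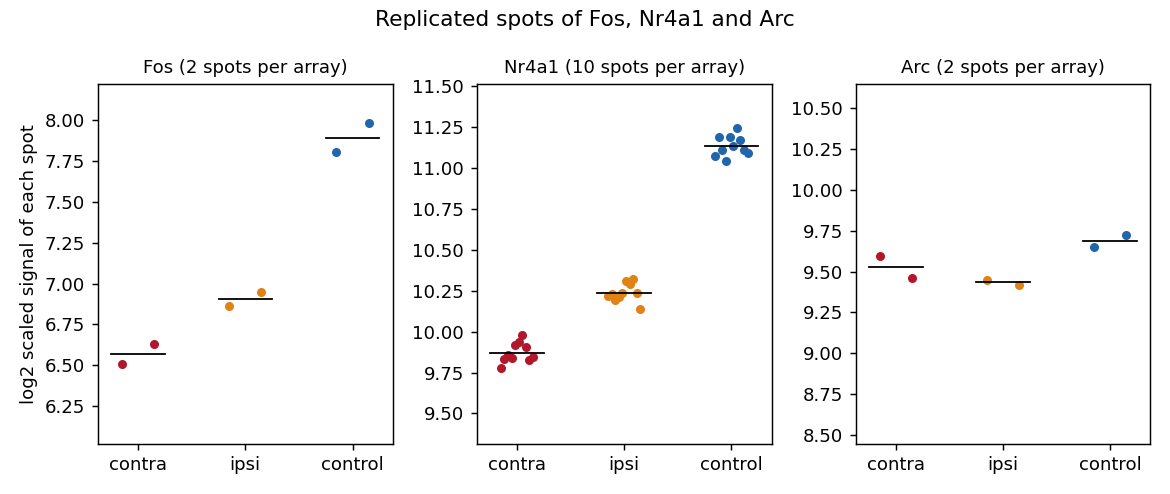
Log2 scaled signal of each spot of Fos, Nr4a1 and Arc on the 3 arrays, with the mean as a bar; each panel spans the same width on its axis. The 10 spots of Nr4a1 form 3 separate ranges after scaling, with a mean signal of 2250.2 on the control array and 937 on the contralateral array, while the Arc spots lie close together. Spots of 1 array are not replicates of a group.

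Arc, Ier2 and Dusp1 act outside the DNA-binding families. Arc, a synaptic protein that drives removal of AMPA receptors, read 737 contralaterally, 691 ipsilaterally and 824 in the control group. Its 2 spots spanned 704 to 772, 684 to 699 and 802 to 845 in that order, so the control spots lay above the others by a small margin. The log2 ratios were -0.16 and -0.25, each with a scanner error of 0.20. Ier2, a nuclear protein of the rapid growth factor response, had a bright probe with 10 spots and a dim probe with 1. The bright probe read 2401, 2654 and 3186, and its spots on the control array, from 3025 to 3376, lay above those of the contralateral array, from 2199 to 2551, and of the ipsilateral array, from 2506 to 2904. The ratios of the bright probe were -0.41 and -0.26, with a scanner error of 0.20. The dim probe read 21.3, 28.5 and 38.5, with ratios of -0.86 and -0.44 and scanner errors of 0.27. The probes of Ier2 thus shared their direction and differed in size, and the gene mean was -0.63 and -0.35. That mean was -0.32 contralaterally under normexp, and -0.88 ipsilaterally without scaling. Dusp1, a phosphatase that switches off MAP kinases, read 71.1, 73.3 and 78.8, with ratios of -0.15 and -0.10 within scanner errors of 0.21 and 0.22.

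**Figure D3:**
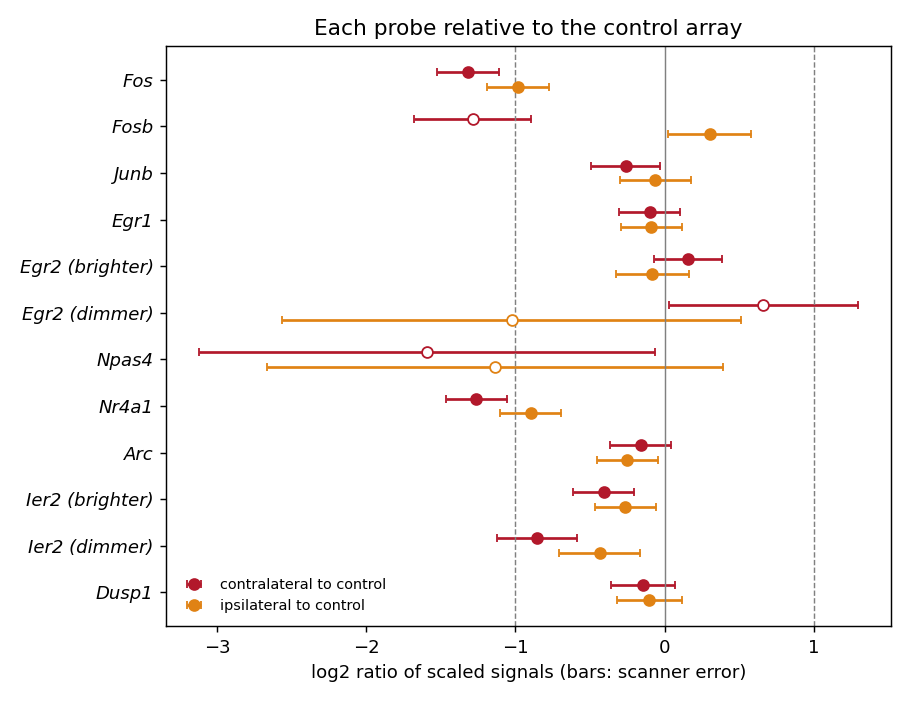
Log2 ratio of each probe to the control array on the contralateral and ipsilateral side, with the scanner error as bars; dashed lines mark 1 and -1. Open circles are ratios in which a probe was not well above background. Fos at -1.32 and Nr4a1 at -1.26 lie past the line on the contralateral side with filled circles.

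In the contralateral to control comparison, 2 of the 7 measured members were below -1, Fos and Nr4a1, and none was above 1. Among all measured genes, 0.851% were below -1 and 1.41% above 1. Over all 10 members, dim signals included, the ratios of Fosb and Npas4 were below -1 as well, making 4, though that of Npas4 came from signals not well above background on any array, where 6.48% of all 38973 genes were below -1 and 4.7% above 1. The median log2 ratio was -0.45 over the 10 members and -0.26 over the 7, against 0.012 over the measured genes. The 7 measured ratios were all negative, from -1.32 to -0.10. The members were brought together by name, with earlier results of these data known, and with 1 array a group neither count nor median has an error from rats.

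In the ipsilateral to control comparison, none of the 7 measured members was past the threshold, where 0.797% of the measured genes were below -1 and 3.1% above 1. Over all 10, dim signals included, only the ratio of Npas4 was below -1, and it came from signals not well above background, where 3.14% of all genes were below -1 and 13.4% above 1. The median was -0.30 over the 10 members and -0.25 over the 7, against 0.030 over the measured genes. Fos, at -0.98, stood just inside the threshold, and was past it when the arrays were not scaled, were scaled to spike-in probes or were read from the deposited values. The ipsilateral array was the dimmest, with a 75th percentile of 1614 before scaling against 2336 for the control array and 2103 for the contralateral array. Its negative control spots had a median scaled log2 signal of 1.57, against 1.06 on the control array and 1.12 on the contralateral array.

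The contralateral to ipsilateral comparison is the one that sets the side opposite the lesion against the other side of the same rats. None of the 7 measured members was past the threshold, and 0.217% of the measured genes were above 1 and 1.54% below -1. Over all 10, Fosb alone was below -1, where 1.85% of all genes were above 1 and 13.4% below -1. The log2 ratio was -0.34 for Fos, with a scanner error of 0.21, and -0.37 for Nr4a1, with 0.20. Of the measured genes, 11.5% had a ratio as low as that of Fos and 10.4% as low as that of Nr4a1. Ier2 was at -0.28, Junb at -0.20, Dusp1 at -0.04, Egr1 at -0.01 and Arc at 0.09, and of these only the mean of the Ier2 probes exceeded its scanner error, of 0.25. Its bright probe, at -0.14, was within its error of 0.20, the dim probe was at -0.42, and without scaling the mean was 0.10. Without scaling of the arrays, Fos was at 0.05 and Nr4a1 at 0.02, where the median of all measured genes lay at 0.37. Relative to that median they stood at -0.33 and -0.36. Without scaling that median was -0.14 for the contralateral and -0.50 for the ipsilateral ratio to the control group, and with spike-in scaling it was -0.12 for the ipsilateral ratio.

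The wider families were taken from gene lists. Among all measured genes, 1.41% were above 1 and 0.851% below -1 contralaterally, and 3.1% and 0.797% ipsilaterally. In the contralateral to ipsilateral comparison these shares were 0.217% and 1.54%. In the NR4A family, all 3 genes were measured and were lower on both sides than in the control group with no scaling, median scaling, spike-in scaling, quantile normalization, normexp and the deposited values, 6 other scalings and corrections. Nr4a2, a nuclear receptor known for its part in dopamine neurons, read 481 contralaterally, 665 ipsilaterally and 892 in the control group. Its ratios were -0.89 and -0.42, and its 2 probes gave -0.80 and -0.98 on the contralateral side. Nr4a3, read at 31.9, 52.2 and 62.4, had ratios of -0.97 and -0.26, with its contralateral ratio at -0.40 under normexp. The median of the family was -0.97 contralaterally and -0.42 ipsilaterally, and with the main scaling only Nr4a1 was past the threshold. On the contralateral side, Nr4a3 was past it in 3 and Nr4a2 in 1 of the 6 other scalings and corrections.

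The EGR family with its NAB repressors had 3 measured genes of 6. Egr4, an EGR factor expressed in neurons, read 592 contralaterally, 847 ipsilaterally and 1307 in the control group. Its ratio was -1.14 contralaterally and -0.63 ipsilaterally, with a scanner error of 0.20. It stayed below -1 on the contralateral side under the 6 other scalings and corrections. On the ipsilateral side it was past the threshold in 1 of these, at -1.16. Egr3, a factor of muscle spindle and synaptic responses, read 16.1, 32.7 and 17.4. It was at -0.11 and 0.91 to the control group and at -1.02 in the contralateral to ipsilateral comparison, which was -0.13 under normexp. This probe lay near the lowest signal well above background, which was 9.12, 12.4 and 8.72 on the 3 arrays. Within the family, Egr4 was past the threshold on the contralateral side while Egr1 was within its scanner error, and both were read from 1 spot.

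**Figure D4:**
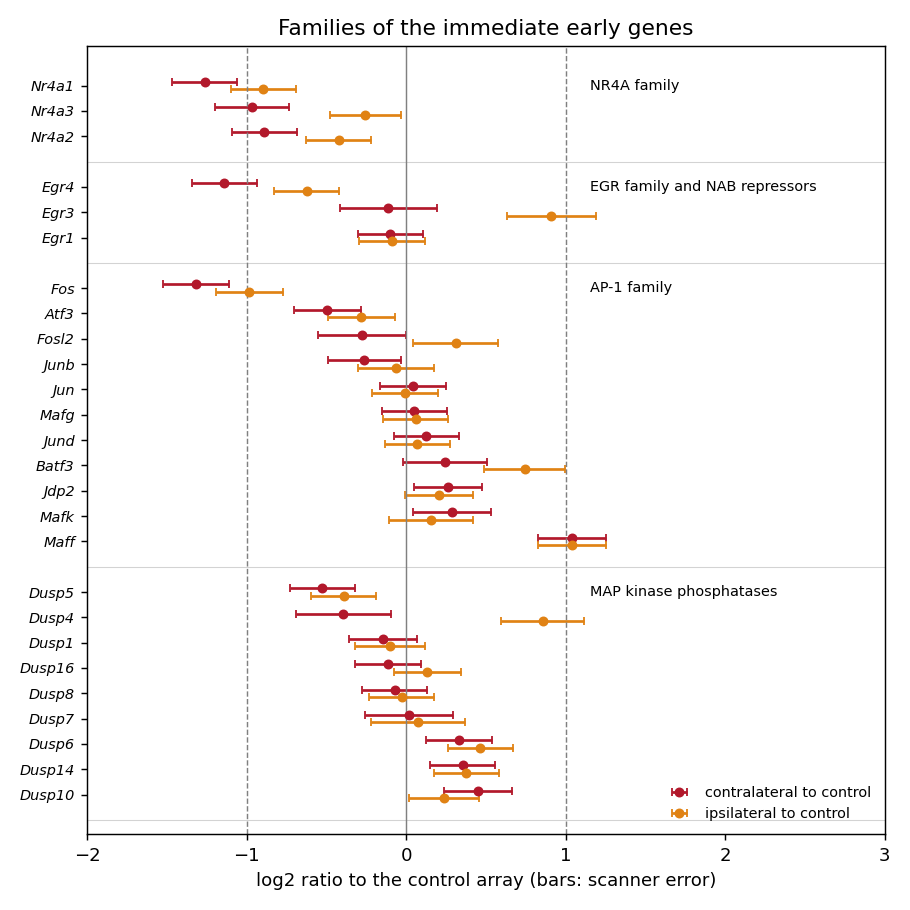
Log2 ratio to the control array for the measured genes of the NR4A, EGR, AP-1 and MAP kinase phosphatase lists, with the scanner error as bars; dashed lines mark 1 and -1. The 3 NR4A genes, Egr4 at -1.14 and Fos at -1.32 lie to the left on the contralateral side, and most AP-1 genes lie near 0.

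The AP-1 list had 11 measured genes of 15. On the contralateral side 1 was above 1 and 1 below -1, beside 1.41% and 0.851% of all measured genes. The gene below was Fos. The gene above was Maff, a small Maf protein that lacks an activation domain, which read 97.0, 96.9 and 47.2 and had a ratio of 1.04 on each side, with a scanner error of 0.21, and was past the threshold on each side in 2 of the 6 other scalings and corrections. Jun and Jund, the bright partners of Fos, had contralateral ratios of 0.04 and 0.13, and the sign of both changed when the arrays were not scaled, that of Jun also with spike-in scaling and the deposited values. The median of the list was 0.049 contralaterally and 0.070 ipsilaterally, and turned negative without scaling and with spike-in scaling.

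Other rapid primary response genes had 20 measured genes of 24. Of these, 1 was past the threshold, above 1 on each side, beside 1.41% and 3.1% of all measured genes. That gene was Ccn2, a secreted matrix protein induced by growth factors and mechanical stress. It read 342 contralaterally, 401 ipsilaterally and 114 in the control group. Its ratios were 1.59 and 1.81, with a scanner error of 0.21, over 9 spots. Ier2 had the lowest contralateral ratio of the list. The median was -0.078 contralaterally and 0.050 ipsilaterally, and the latter turned negative with the deposited values, under spike-in scaling and without scaling.

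Among activity-induced effectors, 13 of 24 were measured and none was past the threshold in any comparison with the main scaling. Their medians were -0.11 and -0.065. Plk3, a kinase of the stress response, was lowest at -0.87 and -0.44, with signals of 37.6, 50.4 and 68.6, and Sorcs3, a neuronal sorting receptor, was highest on the contralateral side at 0.21. Of the MAP kinase phosphatases, 9 of 11 were measured and none was past the threshold to the control group. Dusp5, which acts on nuclear ERK, was lowest at -0.53 and -0.39, with signals of 3674, 4031 and 5297, and Dusp10, which acts on p38 and JNK, was highest on the contralateral side at 0.45, with 0.23 ipsilaterally and -0.30 there without scaling. Dusp4 was at -0.40 and 0.86 to the control group, and at -1.25 in the contralateral to ipsilateral comparison, from signals of 20.3, 48.3 and 26.7. Like Egr3 it lay low on the scale, and its contralateral to ipsilateral ratio was -0.39 under normexp. The medians of the phosphatases were -0.074 and 0.13, and the latter turned negative without scaling and with spike-in scaling.

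Upstream kinases and transcription factors had 29 measured genes of 36, and none was past the threshold. Elk1, an ETS partner of serum response factor, was highest on the contralateral side at 0.31, and Elk3, a related factor that can repress, was lowest at -0.37. Srf itself was at -0.15 and Creb1, which encodes the CRE binding protein, at 0.03. The medians were 0.028 and 0.022, beside 0.012 and 0.030 for all measured genes, and turned negative under 4 and 5 of the 6 other scalings and corrections. RNA of these regulators does not show their phosphorylation, through which they act.

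Dusp1 and Per1 also respond to glucocorticoids, the adrenal hormones released in stress. Of 17 glucocorticoid-responsive genes, 13 were measured and 4 were above 1 on each side, with none below -1, beside 1.41% and 3.1% of the measured genes above 1. Without scaling, Sgk1 at 0.88 and Mt1 at 0.78 fell below 1 on the ipsilateral side, which left 2 above. Their median was 0.59 contralaterally and 0.75 ipsilaterally and was positive under the 6 other scalings and corrections. Sult1a1, a sulfotransferase, was highest at 2.21 and 2.19, with signals of 5498, 5422 and 1189. Per1, a clock gene that is also on the rapid response list, was at 0.72 and 0.75, from 772, 785 and 468. Dusp1 had the lowest contralateral ratio of this list, at -0.15.

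For the pattern of Fos, the likeness was measured as the Euclidean distance in the log2 ratios of both sides to the control group, over 11249 other named measured genes. The 5 closest were Prelid2 at 0.065, Tlr12 at 0.075, Adam4l1 at 0.087, Nr4a1 at 0.10 and Spon2 at 0.11. The contralateral and ipsilateral ratios were -1.27 and -1.03 for Prelid2, and -1.31 and -0.91 for Tlr12, a Toll-like receptor. Adam4l1 was at -1.31 and -1.07, and Spon2, a secreted matrix protein, was at -1.21 contralaterally and just below -1 ipsilaterally. Apart from Nr4a1, these genes were read from 1 or 2 spots, with signals between 14.7 and 67.6.

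The tissue was checked with marker lists, whose part in the ratios of Fos and Nr4a1 was not tested. All 10 granule cell markers were well above background on the 3 arrays, with a summed scaled signal of 125858 contralaterally, 123868 ipsilaterally and 122122 in the control group. Their median log2 ratio was 0.11 contralaterally and 0.021 ipsilaterally, the former negative without scaling and the latter in 5 of the 6 other scalings and corrections, from Zic1 at -0.19 to Zic2 at 0.45 on the contralateral side. Cbln1, whose probe was the brightest of the list, was at -0.10 and -0.08; the brightest probe of a list need not belong to its most abundant RNA. All 9 Purkinje cell markers on the array were well above background as well, with sums of 454332, 482402 and 394223 and medians of 0.14 and 0.15, also negative without scaling. Aldoc was their brightest and highest, at 0.27 and 0.44, and Slc1a6 their lowest, at -0.06 and -0.08. A large part of each sum was Aldoc, with 228140, 256822 and 188969. Rora, another Purkinje cell marker, had no matched probe.

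The glial lists held 10 Bergmann glia and astrocyte, 8 oligodendrocyte and 10 microglia and macrophage markers, all well above background on the 3 arrays. Bergmann glia and astrocyte markers summed to 79260 contralaterally, 79961 ipsilaterally and 85464 in the control group. Their median ratios were -0.072 and 0.015, the latter negative in 5 of the 6 other scalings and corrections. By the mean over the probes of each gene, Aqp4 was brightest on the control array, at -0.55 and -0.45. By the same mean S100b was brightest on the others, at 0.17 and 0.12. Gjb6 was highest at 0.71 and 0.72, and Gfap lowest at -0.73 and -0.66. Oligodendrocyte markers summed to 49486, 51273 and 52422, with medians of -0.081 and -0.017, Mobp highest at 0.28 and Cnp lowest at -0.47 on the contralateral side. Microglia and macrophage markers summed to 13330.3, 16773 and 9757, with medians of 0.19 and 0.38, the latter negative without scaling. C1qb was their brightest at 0.62 and 0.98, Cx3cr1 highest at 0.78 and 1.27, and Aif1 lowest at -0.29 and -0.10.

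The medians of vascular, meningeal and blood markers were negative on both sides, as was the oligodendrocyte median. With the main scaling, 2 endothelial and mural and 2 leptomeningeal markers were above the control group on the ipsilateral side. The erythroid median was lower on the ipsilateral side than on the contralateral side. The part of these markers in the ratios of Fos and Nr4a1 was not tested. The 10 endothelial and mural markers were all well above background, summed to 5448 contralaterally, 5602 ipsilaterally and 6743 in the control group, and had medians of -0.26 and -0.20. Cldn5 was brightest at -0.19 and -0.14, Flt1 highest at 0.04 and Vtn lowest at -0.49 on the contralateral side. The 8 leptomeningeal markers, also all above background, summed to 88299, 102550.4 and 98283, with medians of -0.64 and -0.30. Ptgds made up most of that sum, at -0.08 and 0.11, and on the contralateral side Dcn was highest at -0.03 and Col1a1 lowest at -1.26. In the 6 other scalings and corrections, the leptomeningeal median lay between -0.79 and -0.30 contralaterally and between -0.84 and -0.25 ipsilaterally. The endothelial and mural median lay between -0.41 and -0.20 contralaterally and between -0.73 and -0.14 ipsilaterally. Of 6 erythroid markers, 4 were well above background contralaterally, 4 ipsilaterally and 6 in the control group, and they summed to 1338, 1192 and 2729.5. Their median over 3 measured genes was -0.88 and -1.03, with Hba-a1 brightest at those values, Hba-a2 highest at -0.85 and Hbb-b1 lowest at -1.70 on the contralateral side.

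Of the markers of neighbouring tissue, those of choroid plexus had the lowest contralateral to ipsilateral median, -1.21 over 7 measured genes. The leptomeningeal median in that comparison was -0.29, with all 8 genes negative, and 0.09 without scaling. The forebrain neuron median was 0.023, with Nrgn at 2.04. Of the 9 choroid plexus markers, 8 were well above background contralaterally, 8 ipsilaterally and 9 in the control group, with sums of 10820.1, 77064 and 34192. Their medians over 7 measured genes were -0.68 and 0.66. Ttr was brightest at -1.73 and 1.19, Otx2 highest at -0.02 and Sostdc1 lowest at -1.98 on the contralateral side. Most of each sum was Ttr, with 9910, 75329 and 32961. In the 6 other scalings and corrections, the choroid plexus median lay between -0.83 and -0.41 contralaterally and between 0.13 and 0.68 ipsilaterally. The ipsilateral ratio of Ttr was above 1 in 5 of these and 0.66 at its lowest. The forebrain neuron list, with 9 genes on the array, had 6, 7 and 6 well above background and sums of 8531, 8471 and 7386. Its medians over 5 measured genes were 0.017 and 0.038, both of them below 0 in the deposited values, under spike-in scaling and without scaling. Tbr1 was not well above background on any array, Ppp1r1b was brightest at 0.33 and 0.30, and on the contralateral side Nrgn was highest at 1.83 and Neurod6 lowest at -0.05, while Nrgn was lowest on the ipsilateral side at -0.21. The part of these markers in the ratios of the immediate early genes was not tested either.

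The dependence on the processing was drawn for 2 genes that were past the threshold and 2 that were not. Arc and Egr1 stayed negative in both ratios to the control group under each processing, as did Fos and Nr4a1, and those of Arc and Egr1 never passed -1. The contralateral ratio of Egr1 came closest to 0, at -0.0014 under normexp.

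**Figure D5:**
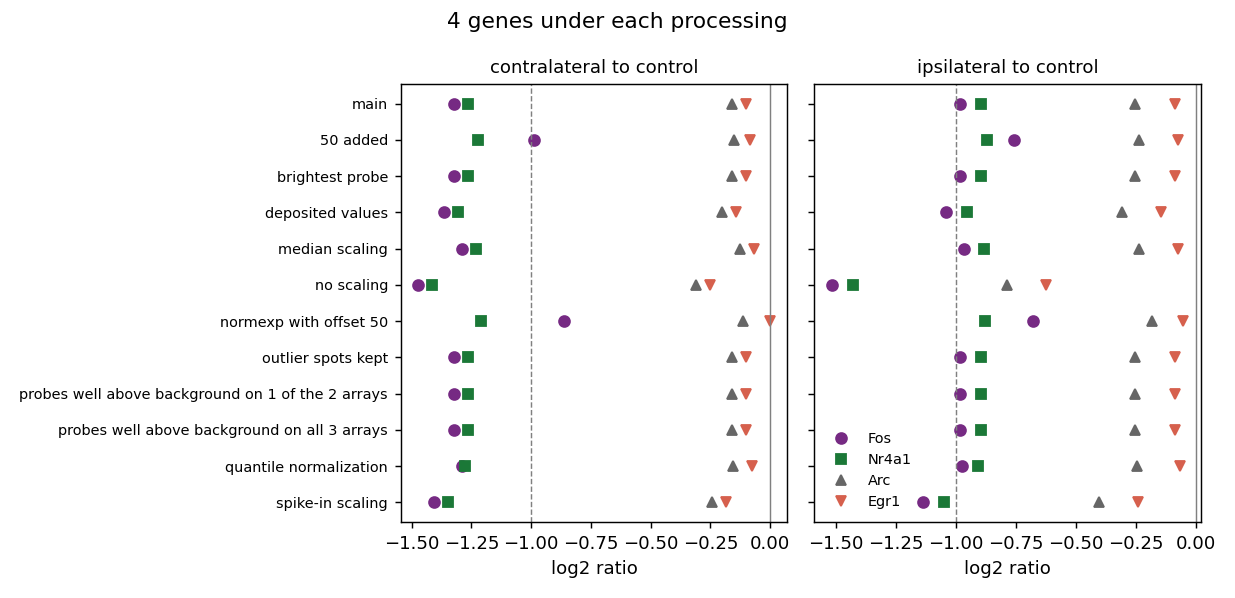
Log2 ratio to the control array of Fos, Nr4a1, Arc and Egr1 under the main processing and 11 alternatives, with the contralateral side on the left and the ipsilateral side on the right; dashed lines mark -1. On the contralateral side Nr4a1 lies between -1.42 and -1.21 under the alternatives and Fos between -1.47 and -0.86.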

How the data were processed

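Gene expression in cerebellar cortex was measured on 3 Agilent arrays, 1 for each group, each of tissue pooled from 4 rats. The authors hybridised Cy3-labelled RNA in 1 colour, and the spot intensities they deposited came from Agilent Feature Extraction 12.1.0.3, which subtracted the background and did not scale between arrays. A deposited value table held the same intensities times 1 factor per array (1.12 contralateral, 1.45 ipsilateral, 1.04 control). Whether these factors are the normalization to control samples named in the methods is not given in the sources used here. Of 58717 spots that are not controls, the numbers well above background were 42470 (contralateral), 43028 (ipsilateral) and 43283 (control), and 0 were saturated. The arrays shared 1 slide; whether the pools were dissected, extracted and labelled together is not given.

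Log2 intensities of each array were shifted to a common 75th percentile. The 759 outlier spots were left out, and spots were averaged to probes and probes to genes. Accessions were matched to symbols in the RefSeq table of GRCr8, 17622 of 39957. The threshold, taken from the study's methods, was a log2 ratio above 1 or below -1. With 1 array per group there was no test and no p-value, and the number of arrays limits the precision. Counting was tested on simulated data, with shifts far past the threshold and only spots well above background on the control array. That check does not cover dim probes.

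The members and the 18 gene lists were chosen with earlier results of these data known. Named were all 10 members, and in each list the measured genes highest and lowest in contralateral ratio, with most of the brightest marker genes. In the AP-1, EGR, NR4A and MAP kinase phosphatase lists, every measured gene past the threshold in a comparison was named too. So were the 5 genes most alike to the measured member with the largest absolute contralateral ratio. Nr4a3, Jun, Jund, Srf, Creb1, Per1, Sgk1, Mt1, S100b and Rora and the form TGCGTCA were picked with their values in view.

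As 11 alternatives, the arrays were left unscaled, scaled to the median, scaled to 8 spike-in probes or quantile normalized. Normexp (offset 50) with quantile normalization, the deposited table, the addition of 50 to each signal, 2 dim-probe filters, the brightest probe per gene, and keeping outlier spots were also tried. Normexp was run on median signals, since the files held no mean signals. Software was R 4.3.3 with limma 3.58.1, and Python 3.11.15 with pandas 2.3.3, numpy 2.4.6 and matplotlib 3.10.9.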

Additional observations from a re-analysis of the deposited data

How the results depend on the processing

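The counts and medians over the 10 members moved with the treatment of dim signals and with the scaling. Of 321 values of single genes under the 11 alternatives, 294 moved by less than their scanner error, those that an alternative leaves unchanged included, 27 by more, and 0 of those past the threshold changed sign. In the contralateral to control comparison, the main count of 4 members past the threshold became 1 with 50 added and 1 with normexp. It became 3 of 9 members with probes well above background on 1 of the 2 arrays, and 2 of 8 members with those on all 3 arrays. The median of -0.45 became -0.14, -0.089, -0.26 and -0.21 under these alternatives, in that order. In the ipsilateral to control comparison, the count of 1 became 0 with 50 added, with normexp and with either filter on dim probes, 2 with the deposited values, 3 with spike-in scaling and 4 without scaling, where the median was -0.84 against -0.30. Without scaling the median of all genes in that comparison was itself -0.40. The 4 members included Npas4, and Egr2 with its dimmer probe included. Shares of all genes past the threshold are given for the main scaling only. In the contralateral to ipsilateral comparison, the count of 1 became 0 with 50 added, with normexp and with probes well above background on all 3 arrays. It became 2, with 1 above and 1 below, without scaling, with spike-in scaling and after quantile normalization, the 1 above being Egr2 with its dimmer probe included. The median of -0.24 was 0.14 without scaling, -0.0092 with normexp and -0.0027 after quantile normalization. The filters act by leaving out dim probes and the added signal by drawing dim ratios toward 0; the cause of the other shifts was not tested.

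The contralateral ratio of Fos lay between -1.47 and -0.86 and was below -1 in 9 of 11 alternatives, 4 of which left it unchanged, and its ipsilateral ratio between -1.52 and -0.68, below -1 in 3. The ipsilateral ratio of Nr4a1 lay between -1.43 and -0.87. No paired analysis was possible because each group had 1 array and no result came from a test. Low signal over background limits Fosb, Npas4 and the dimmer probe of Egr2.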
